A study of Mus musculus with 6 samples.

Results

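The 10 genes described here encode the Smad proteins and a pair of ubiquitin ligases that remove them. They were taken by symbol: Smad1, Smad5, Smad9, Smad2, Smad3, Smad4, Smad6, Smad7, Smurf1 and Smurf2. Every probe set that carries such a symbol alone was used, which gave 23 of the 45101 probe sets on the array, which name 18194 genes. The cells were C3H10T1/2, a mouse mesenchymal line that can form fat, cartilage, bone and muscle cells in culture. In the BMP4 group they had 50 ng/ml BMP4, a bone morphogenetic protein, while they multiplied, and in the control group they were handled alike without it. RNA of both groups was taken after confluence, with 3 arrays per group. All samples come from this 1 line, and the labels do not say whether the replicates were separate cultures, so p-values measure the spread between these samples only, which may be technical.

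Ligands of the TGF-beta superfamily bind receptor kinases at the cell surface, which phosphorylate the receptor-regulated Smads at their C-terminal end. Smad1, Smad5 and Smad9 carry the signal of BMP receptors, Smad2 and Smad3 that of TGF-beta and activin receptors, and Smad4 joins both branches to enter the nucleus and act on genes. Smad6 and Smad7 hold the pathway back at the receptors, and the Smurf ligases mark Smads and receptors for degradation. Arrays measure transcripts, so phosphorylation and protein amounts are not covered.

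After BMP4 treatment, transcripts of Smad3 and Smurf2 were lower, and no member transcript passed the test upward. Smurf2 fell on all 3 of its probe sets, by log2 changes of -0.30 to -0.84, and Smad3 fell on 2 of 3, with -0.43 and -0.56 (limma, adjusted p between 0.00104 and 0.0484 for these 5). Smad6, the inhibitory Smad of the BMP branch, gave 0.41 and just missed the threshold (limma adjusted p = 0.0556). The BMP-branch carriers Smad1, Smad5 and Smad9, the shared Smad4, and Smad2, Smad7 and Smurf1 did not pass on any probe set.

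Of the 23 member probe sets, 5 (21.7%) were called, all of them lower, while 9.12% of all 27022 probe sets tested were called, 4.91% lower and 4.2% higher. With each array centred on its median, 1890 of all probe sets were lower and 632 higher, in place of 1328 and 1136, and the 5 members stayed lower. A probe set was called when its adjusted p was below 0.05 in a limma fit over all probe sets tested, and log2 changes are differences, BMP4 minus control, of log2(signal + 16). Probe sets of 1 gene share a transcript, so by gene the count is 2 of 10. It is also 2 of 10 when each gene is represented by its brightest probe set, with 10.7% of all 12966 genes called in this way, but the brightest Smurf2 set lost its call in 9 of 14 alternatives, which leaves 1 gene. At an unadjusted p under 0.05, 1 member probe set was higher and 7 were lower, against 11.5% higher and 11% lower of all probe sets tested. The median log2 change was -0.05 over the member probe sets and 0.03 over all probe sets tested. Without BMP4 replicate 3 or without control replicate 1, 3 member probe sets were called lower. In 11 of the 23 (47.8%) the arrays of 1 group lay wholly on one side of the other, 8 with BMP4 below and 3 with BMP4 above, while this held for 28.2% of all probe sets tested.

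**Figure D1:**
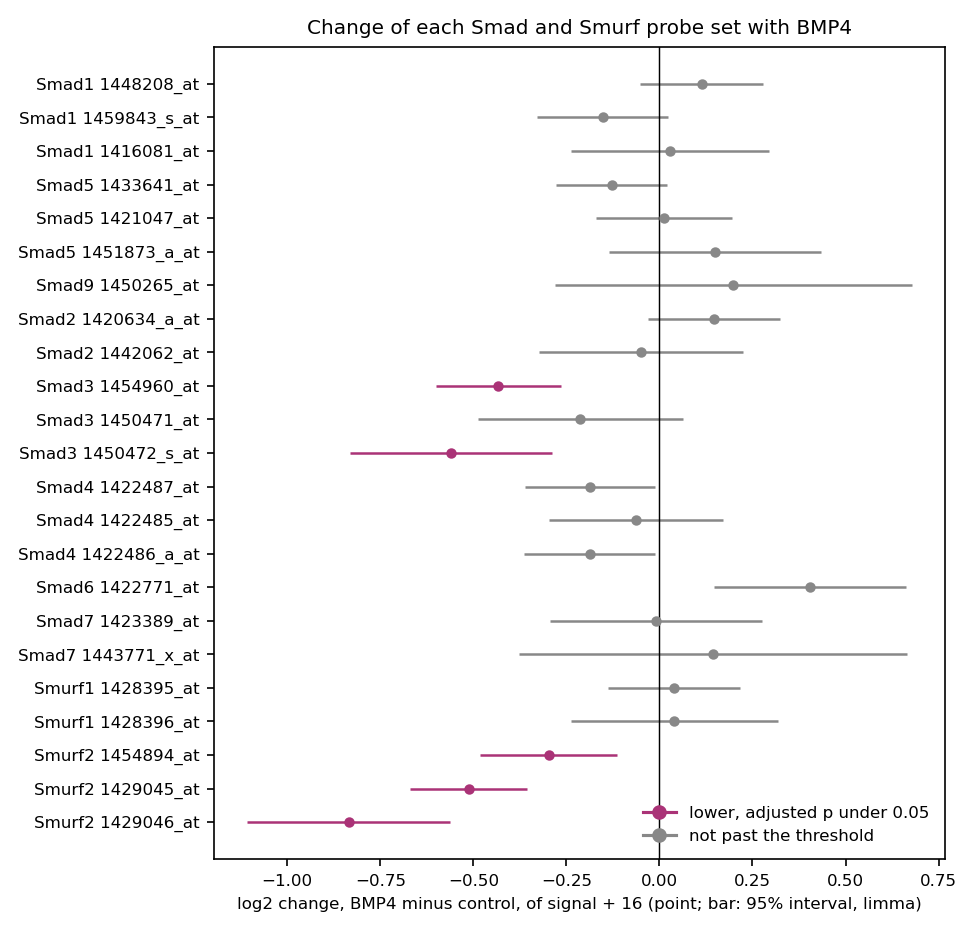
The log2 change of signal + 16 (BMP4 minus control, horizontal axis) of each of the 23 probe sets, with 95% intervals from limma as bars. The intervals of the 3 Smurf2 probe sets and of 2 Smad3 probe sets lie below 0 and are coloured as called; those of Smad4 1422487_at and 1422486_a_at end just below 0 and that of Smad6 lies above 0, but these were not past the adjusted threshold.

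The 6 arrays had equal 2% trimmed means of 150, the mark of a common scaling, and median signals of 35.2 to 42.6, a little higher with BMP4 (37.6 to 42.6) than without (35.2 to 37.3). The highest signal of 27 probe sets for bacterial genes, taken here as background, was 29.1. On every array 22 of the 23 member probe sets were above it, and the exception was Smad9. Mesenchymal markers were bright, with 8 of 8 above background on all arrays and a summed signal of 41398 to 48544 with BMP4 and 35882 to 44775 without; among them Twist1 fell (log2 change -0.48, limma adjusted p = 0.044). Markers of other cell types were at background in part, but the epithelial marker Epcam read 197.2, 371.7 and 428.3 with BMP4 and 413.3, 392.6 and 335.8 without, on probes that can cross-hybridise, and the macrophage marker Csf1r read 112.4 to 169.7 over the 6 arrays. The sums of each list with and without BMP4 were 219 to 358.7 and 223.7 to 246.8 for blood cells (3 of 6 above background on all arrays; Cd3e, Itgam and Ptprc below it on all), 119.9 to 191.7 and 205.2 to 214.9 for endothelium (1 of 5 above, Tek; Pecam1 and Tie1 below), and 347.2 to 579.8 and 464.1 to 549 for epithelium (2 of 5 above, Epcam and Krt5; Cdh1 below). Tek fell with BMP4 (-0.69, limma adjusted p = 0.0167), and the endothelial sums of the groups did not overlap; the part of this difference in the results below was not tested. In RNA from whole cultures, fewer cells of a type and less RNA per cell cannot be told apart.

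**Figure D2:**
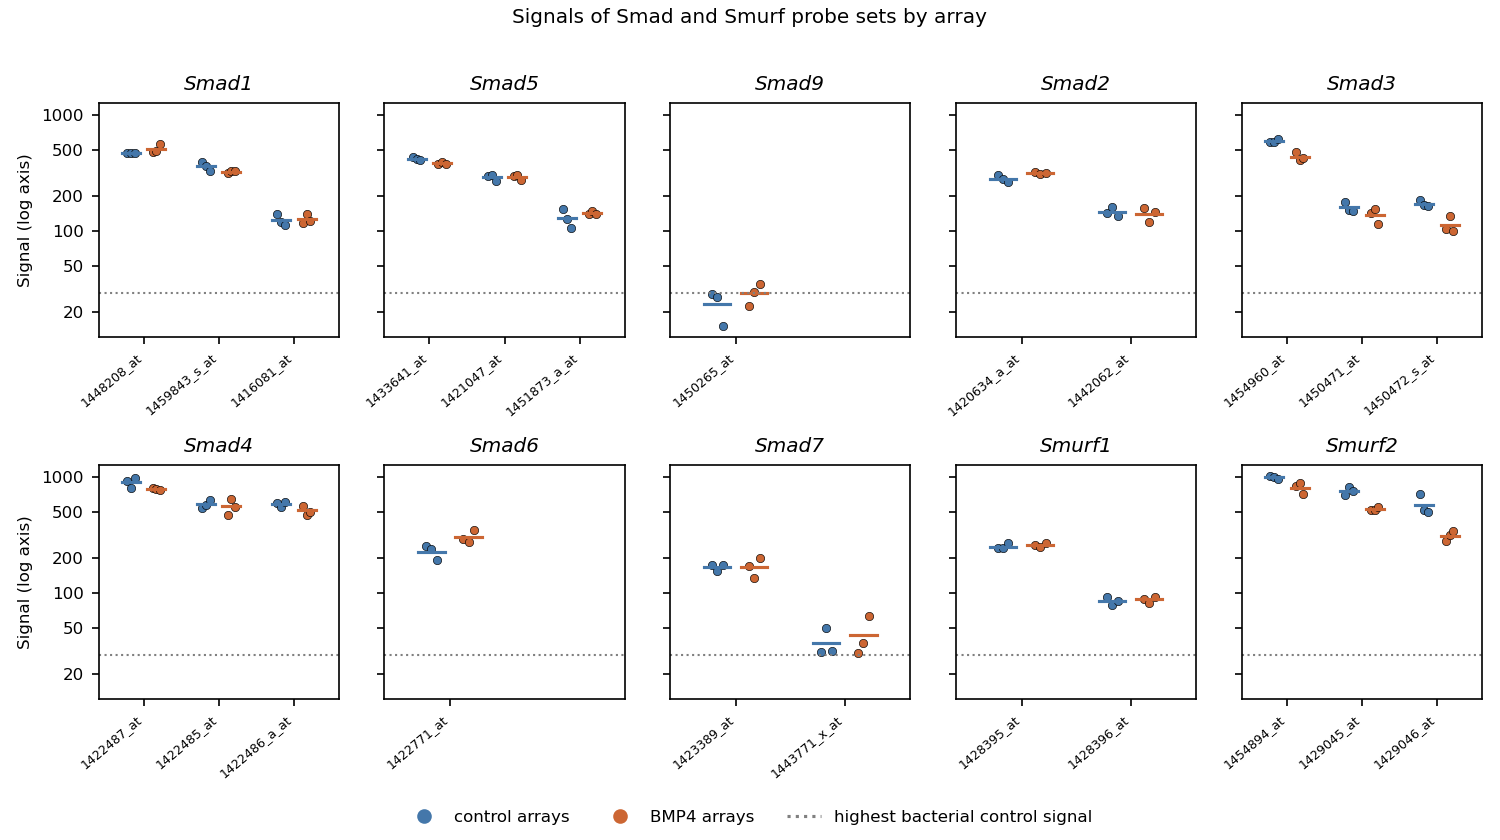
Signal (log axis) of each Smad and Smurf probe set on the 3 control and 3 BMP4 arrays, 1 panel per gene; points are arrays, short lines are group means, and the dotted line is the highest bacterial control signal, 29.1. The BMP4 points lie below all control points in each Smurf2 probe set and in Smad3 probe sets 1454960_at and 1450472_s_at, and above them for Smad6. Heights of different probe sets cannot be compared, since each has its own probes.

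Among the carriers of the BMP signal, Smad1 had 3 probe sets that moved in different directions and did not pass. Its brightest, 1448208_at, read 478.7, 492.1 and 559.8 with BMP4 and 469, 468.7 and 469.9 without, a log2 change of 0.11 (95% interval -0.05 to 0.28, limma adjusted p = 0.411). The BMP4 arrays lay above the controls there, by less than the spread among the BMP4 arrays. Probe set 1459843_s_at gave the opposite, 313.3, 325.9 and 326.9 against 388.8, 364.1 and 328.5, a log2 change of -0.15 (-0.33 to 0.02, adjusted p = 0.297). The suffix _s_at marks probes that also match other transcripts, so its signal may not be Smad1 alone. The third, 1416081_at, overlapped between groups and gave 0.03 (-0.24 to 0.29). Smad5, the closest relative of Smad1 in this branch, gave -0.13 (-0.28 to 0.02, limma adjusted p = 0.3), 0.01 (-0.17 to 0.19) and 0.15 (-0.14 to 0.44) on its 3 probe sets. The first of these, 1433641_at, had BMP4 arrays at 376.2, 393.2 and 374.4, all below the controls at 432, 412.6 and 410. Smad9, the third carrier of this branch, was at background: 22.3, 29.8 and 34.6 with BMP4 and 28.2, 26.7 and 15.1 without, with 2 of 6 arrays above 29.1. Its log2 change of 0.20 had an interval of -0.28 to 0.68 (limma adjusted p = 0.64), which sets almost no limit on a change at this signal.

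Of the carriers of TGF-beta and activin signals, Smad3 fell and Smad2 did not pass. On its brightest probe set, 1454960_at, Smad3 read 475.3, 406.2 and 423.3 with BMP4 and 578.3, 581.5 and 615.8 without, so every BMP4 array lay below every control. Means were 435 ± 36.0 and 592 ± 20.8 (SD, n = 3). The fitted log2 change was -0.43 ± 0.08 (SE, limma adjusted p = 0.00434), so that signal + 16 fell by 25.9%. Probe set 1450472_s_at, whose probes may match further transcripts, read 102.6, 133.9 and 99.9 against 183, 167.1 and 165. The groups were again apart, and the change was -0.56 ± 0.12 (adjusted p = 0.0159). Its call was lost without BMP4 replicate 3 (limma adjusted p = 0.0531) or without control replicate 1 (0.0731), over a range of 0.0068 to 0.0731 in all alternatives, while that of 1454960_at held in all 14. The third probe set, 1450471_at, read 140.9, 152.8 and 113.9 against 178.1, 150.6 and 149.5; the groups overlapped by 1 BMP4 array, and the value was -0.21 (-0.49 to 0.06, limma adjusted p = 0.35). All 3 intervals share the stretch from -0.49 to -0.29.

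Smad2, which shares receptors with Smad3, read 318.2, 306.9 and 314.4 with BMP4 and 304.6, 279.7 and 260.8 without on probe set 1420634_a_at, a set for several transcript forms of the gene. The BMP4 arrays lay above the controls, with a log2 change of 0.15 (-0.03 to 0.32, limma adjusted p = 0.314). The dimmer 1442062_at gave -0.05 (-0.32 to 0.22), with overlapping groups. Within each array, the log2 signal of Smad3 minus that of Smad2, each averaged over its probe sets, changed by -0.45 with BMP4. The groups did not overlap (two-sided exact permutation p = 0.1, and 0.15 adjusted over 3 such pairs). Since 0.1 is the smallest p that 3 against 3 arrays allow, this test could not pass 0.05. The 3 pairs were chosen after their values were seen. This difference rests on the Smad3 and Smad2 values above and is no separate support.

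Smad4, the partner shared by both branches, had 3 probe sets with values below 0 and none past the test. Probe set 1422487_at read 802.4, 791.3 and 773 with BMP4 and 914, 805.7 and 988.6 without, with the groups just apart and a log2 change of -0.19 (-0.36 to -0.01, limma adjusted p = 0.193). The set 1422486_a_at gave the same size, -0.19 (-0.36 to -0.01, adjusted p = 0.194), with overlapping groups, and 1422485_at gave -0.06 (-0.30 to 0.17). In the fit as reported, a loss of Smad4 transcript larger than 0.36 on the log2 scale lies outside the 95% intervals of all 3. This bound depends on the scaling: with each array centred on its median, 1422487_at and 1422486_a_at gave -0.28 (limma adjusted p = 0.0707 and 0.0522).

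The inhibitory Smads differed in their values. Smad6, which competes with Smad4 for Smad1 and blocks BMP receptors, is covered by 1 probe set, which read 292.2, 276.1 and 349.3 with BMP4 and 251.3, 239.5 and 191.2 without. Every BMP4 array was above every control, the means were 306 ± 38.5 and 227 ± 31.8 (SD, n = 3), and the log2 change was 0.41 ± 0.12 (SE, 95% interval 0.15 to 0.66, limma adjusted p = 0.0556). It passed under a filter at the 60th percentile of signal (adjusted p = 0.0411) and after quantile normalization (0.0443), and in the other alternatives its adjusted p reached up to 0.166. Smad7, which acts on receptors of both branches and brings Smurfs to them, read 169.8, 135.5 and 198.7 against 174.6, 154.4 and 173.8 on 1423389_at. The BMP4 arrays spread on both sides of the controls, and the log2 change was -0.01 (-0.29 to 0.28, limma adjusted p = 0.977). A dim second set, 1443771_x_at, whose suffix marks probes that can cross-hybridise, gave 0.14 (-0.38 to 0.67). The within-array log2 difference of Smad6 and Smad7 was higher with BMP4 by 0.34, with 1 array out of order (two-sided exact permutation p = 0.2, adjusted p = 0.2 over the 3 pairs).

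Smurf2, a ligase for Smads of both branches and for receptors, fell on all 3 of its probe sets, and the change of 1429046_at was the largest of the 23. It read 279.6, 318.5 and 339.2 with BMP4 and 706.9, 517.8 and 500.8 without. The highest BMP4 array was well below the lowest control, and the controls themselves were spread, with replicate 1 the highest. Means were 312 ± 30.3 and 575 ± 114 (SD, n = 3). Signal + 16 fell by 43.9%, which in log2 is -0.84 ± 0.12 (SE, limma adjusted p = 0.00148). Probe set 1429045_at read 515.1, 516.1 and 545.9 against 705.4, 811.4 and 757.1, again without overlap, with a change of -0.51 ± 0.07 (adjusted p = 0.00104). The calls of these 2 held in all 14 alternatives. The brightest set, 1454894_at, read 830.7, 884.1 and 712.4 against 1028.3, 995.5 and 960.7. These groups too were apart, but its change of -0.30 ± 0.08 passed narrowly (adjusted p = 0.0484) and was called in 5 of 14 alternatives (limma adjusted p 0.0164 to 0.17). It was lost without the filter, without the intensity trend, with a pseudocount of 4, with quantile normalization, and without any 1 array except BMP4 replicate 2. The 95% interval of 1429046_at, -1.11 to -0.56, lies wholly below that of 1454894_at, -0.48 to -0.12, so the size of the fall was not the same on all probe sets.

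Smurf1, its relative, which was first described as a ligase for BMP-branch Smads, gave 0.04 on both of its probe sets (95% intervals -0.14 to 0.22 and -0.24 to 0.32, limma adjusted p = 0.828 and 0.891). The brighter one, 1428395_at, read 257, 249.8 and 267.1 with BMP4 and 241.6, 243.2 and 267.9 without, with the groups intermixed. Within each array, the log2 signal of Smurf2 minus that of Smurf1 changed by -0.59 with BMP4, with no overlap between groups (two-sided exact permutation p = 0.1, the smallest possible here; 0.15 adjusted over the 3 pairs).

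**Figure D3:**
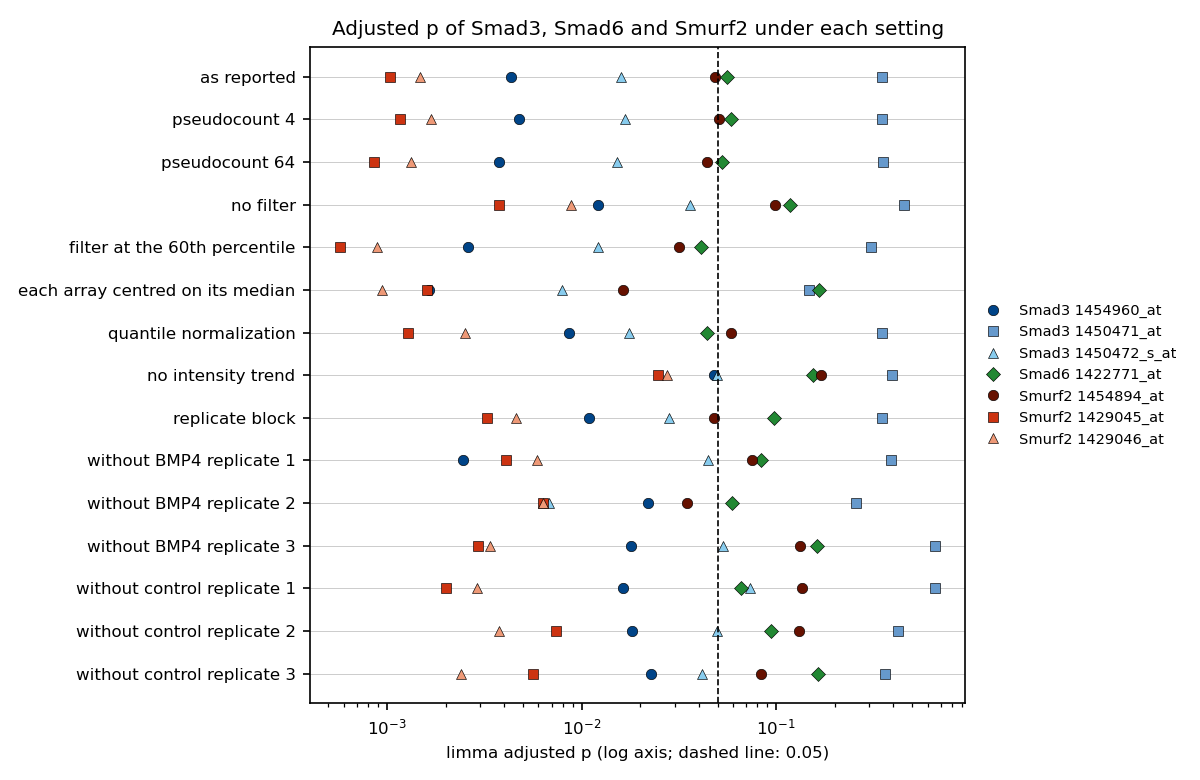
The limma adjusted p (log axis) of each Smad3, Smad6 and Smurf2 probe set, as reported and under each of 14 alternatives, 1 line per setting; the dashed line is the threshold of 0.05. Smurf2 1429045_at and 1429046_at and Smad3 1454960_at lie left of the line in every setting, Smurf2 1454894_at and Smad6 fall on both sides, Smad3 1450472_s_at crosses it without BMP4 replicate 3 and without control replicate 1, and Smad3 1450471_at is right of it throughout.

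The start-site sequences of Smad3 and Smurf2, the genes that fell, and of Smad6, the one with the largest rise in value, are shown for letters known from Smad binding. They come from RefSeq promoter windows (GRCm38.p6), which were listed for 7 of the 10 members; Smad2, Smad4 and Smad7 had no entry. Each runs 5′ to 3′ on the gene's strand from 250 bases before the annotated start to 20 bases after it. Capitals mark the letters of 3 motifs searched on both strands: the palindrome GTCTAGAC, the box CAGAC (read GTCTG on the other strand), and GGCGCC, a GC-rich palindrome bound by Smads. These motifs do not share letters in the windows printed.
Smad6, chr9:64022040-64022309, minus strand: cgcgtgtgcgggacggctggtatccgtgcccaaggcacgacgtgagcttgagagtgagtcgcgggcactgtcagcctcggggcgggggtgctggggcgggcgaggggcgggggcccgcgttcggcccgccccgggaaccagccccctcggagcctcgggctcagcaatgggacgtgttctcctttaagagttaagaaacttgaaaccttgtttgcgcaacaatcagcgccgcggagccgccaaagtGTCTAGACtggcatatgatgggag
Smurf2, chr11:106920696-106920965, minus strand: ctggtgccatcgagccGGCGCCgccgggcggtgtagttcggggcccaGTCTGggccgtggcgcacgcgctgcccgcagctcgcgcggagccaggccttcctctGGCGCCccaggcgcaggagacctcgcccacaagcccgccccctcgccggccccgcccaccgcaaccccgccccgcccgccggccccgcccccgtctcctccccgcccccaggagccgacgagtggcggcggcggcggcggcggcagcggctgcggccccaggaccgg
Smad3, chr9:63757975-63758244, minus strand: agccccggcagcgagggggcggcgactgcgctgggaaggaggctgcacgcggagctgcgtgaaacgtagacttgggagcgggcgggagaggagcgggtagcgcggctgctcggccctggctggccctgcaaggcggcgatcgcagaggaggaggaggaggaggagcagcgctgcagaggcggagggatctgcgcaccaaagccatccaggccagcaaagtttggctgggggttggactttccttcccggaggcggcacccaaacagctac

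In Smad6 the palindrome GTCTAGAC lay across the annotated start, from base -4 to base 4, and 0.183% of the 32851 promoter windows in the table held it. In Smurf2 GGCGCC was found at -234 to -229 and at -147 to -142, and CAGAC, as GTCTG, at -203 to -199; 10.4% and 45.4% of all windows held these motifs. The Smad3 window held none of the 3. Among the other members, 2 windows held GGCGCC (1 of the 3 for Smad5, and that of Smad9) and 2 held CAGAC (another for Smad5, and that of Smurf1, which had it at 2 places), and the Smad1 window held none. A match is a stretch of letters and was not tested for binding.

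Genes that work with the Smads were taken from 6 lists, which were chosen with earlier results of these data known. The lists held 118 different genes, of which 106 were measured, each by its brightest probe set with 1 symbol. Together 9 were higher and 10 lower with BMP4 (5 and 12 with median centring) and 87 did not pass, while 5.03% of the 12966 genes tested were higher and 5.66% lower (12.9% and 12% at an unadjusted p under 0.05). Their median log2 change was 0.02, against 0.03 for all genes. Receptors and co-receptors had 0 of 13 measured genes higher and 3 lower by limma (0 and 4 at an unadjusted p under 0.05), with a median of -0.08. Tgfbr2, the type II receptor that starts TGF-beta signalling to Smad2 and Smad3, read 2268.8, 2388.9 and 2118.2 with BMP4 and 2938.3, 3334.2 and 3292.6 without, a change of -0.49 (limma adjusted p = 0.00273), and -0.79 on a second probe set. The co-receptors Tgfbr3 (-0.71, which presents TGF-beta to the receptor) and Rgma (-0.69, which binds BMPs) also fell. The BMP type I receptor Bmpr1a, a gene picked with its value known, gave -0.05 (limma adjusted p = 0.663).

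Among 19 measured ubiquitin ligases and deubiquitinases of the pathway, 2 were higher and 1 lower at an unadjusted p under 0.05, with a median of 0.05. At that threshold 12.9% of all genes tested were higher and 12% lower. By limma adjusted p, 1 of the 19 rose and 0 fell, while 5.03% of all genes tested were higher and 5.66% lower. The gene that rose was Wwp2, a HECT ligase of the same Nedd4 family as the Smurfs that also acts on Smads. It read 617.7, 603.2 and 853.6 with BMP4 and 157.8, 198.7 and 202.6 without, so the lowest BMP4 array was far above the highest control. Its log2 change was 1.80 ± 0.13 (SE, limma adjusted p = 1.43e-05), and its other 4 probe sets also passed, with 1.15 to 1.88. Of these, 1457499_at had controls at 9.2, 17.5 and 17.5, under the filter's signal of 23.5. It was kept only through its BMP4 arrays and is no separate support. On 1438482_at, the set at 1.88, controls of 32.7, 23.7 and 24.4 were about the background of 29.1, so that size is not settled. Smurf2 and Wwp2 thus had called changes in opposite directions in the same fit.

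Smad cofactors and corepressors had 1 higher and 3 lower of 25 measured genes (2 and 7 at an unadjusted p under 0.05), with a median of -0.13. For this list and the anchoring list below, the shares over all genes tested were 5.03% higher and 5.66% lower. At an unadjusted p under 0.05 these shares were 12.9% and 12%. Zfp423, a zinc finger partner of BMP Smads, rose by 1.08 on the log2 scale (limma adjusted p = 0.00162). Its controls, at 55.3, 34.7 and 41.3, were not far above the background of 29.1. The call held in all 14 alternatives, but the size of the change was 1.26 with a pseudocount of 4 and 0.69 with 64. The Smad-binding repressor Zeb2 changed by -0.50 (adjusted p = 0.0025) and the antiproliferative factor Tob2 by -0.47 (adjusted p = 0.00168). Further probe sets passed for Zeb2 (-0.41 and -0.62) and Tob2 (-0.53), but the others of these genes did not. Among those were a Zeb2 set at 0.30 (limma adjusted p = 0.295) and a Tob2 set at 0.16 (adjusted p = 0.686). The called Tob2 sets, 1448667_x_at and 1448666_s_at, have suffixes that mark probes able to match other transcripts. Tob2 sets with the plain suffix _at did not pass. The third that fell, the transcription factor Atf2 (-0.29, limma adjusted p = 0.0251), was likewise picked with its value known. Its call was lost in 6 of the 14 alternatives. Its other probe sets gave -0.20 to -0.21 and did not pass (limma adjusted p 0.117 to 0.358). Anchoring proteins, phosphatases and nuclear transport genes had 0 higher and 2 lower of 20 by limma (0 and 4 at an unadjusted p under 0.05), with a median of -0.04. Dab2, an endocytic adaptor that links TGF-beta receptors to Smad2 and Smad3, read 1160.2, 1122 and 1136.3 against 1847.7, 1982.1 and 1943.3, a change of -0.75 (limma adjusted p = 3.44e-05), and -1.27 and -0.82 on further called sets. Pmepa1, a membrane protein that sequesters Smad2 and Smad3, gave -0.46 (adjusted p = 0.0329). Its other sets did not pass, with -0.33 on 1422705_at (limma adjusted p = 0.196) and 0.00 on the dimmest. The Pmepa1 call was lost without the filter, without the intensity trend and without any 1 array except BMP4 replicate 3, which left 1 lower gene.

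Of 18 measured BMP-Smad target genes 2 were higher and 1 lower (4 and 1 at an unadjusted p under 0.05), with a median of 0.13. Over all genes tested, 5.03% were higher and 5.66% lower (12.9% and 12% at an unadjusted p under 0.05), with a median of 0.03. Bambi, a decoy receptor induced by BMP, read 412.9, 367.4 and 341 against 246.3, 236 and 279.3 and rose by 0.53 (limma adjusted p = 0.00462). Tnfrsf11b, the decoy receptor osteoprotegerin, gave 0.52 (limma adjusted p = 0.0423). Its call was lost in 9 of 14 alternatives (adjusted p 0.024 to 0.136), among them the replicate block and each array left out except control replicate 1. A dimmer Tnfrsf11b set, 1418309_at, was also higher (0.66, limma adjusted p = 0.0354). The helix-loop-helix inhibitor Id2 fell by 0.40 (adjusted p = 0.0225), a call lost in 5 of 14 alternatives. A dimmer Id2 set, 1422537_a_at, was also lower (-0.29, limma adjusted p = 0.0353). The relatives of Id2, picked with values known, did not pass. Id4 gave 0.60 (limma adjusted p = 0.0515), Id1 0.10 (0.477) and Id3 -0.05 (0.772). The higher count was 1 without the filter, with median centring, without the trend, and without BMP4 replicate 2 or 3 or control replicate 2. Raising the pseudocount to 64, or the filter cut to percentile 60, gave 3 higher genes instead. The lower count was 0 without the filter, without the trend, and without BMP4 replicate 1 or control replicate 1 or 2. Of 14 TGF-beta-Smad target genes 5 were higher and 2 lower (6 and 3 at an unadjusted p under 0.05), with a median of 0.15. The shares to set beside these are again 5.03% higher and 5.66% lower of all genes tested. Ccn2, a matricellular protein that is also a YAP target, rose by 1.28 (limma adjusted p = 3.86e-05) and the cell cycle inhibitor Cdkn1a by 0.66 (adjusted p = 0.000565). A dimmer Cdkn1a set, 1421679_a_at, gave 0.34 and did not pass (limma adjusted p = 0.11). The ligand Tgfb1 read 45, 51.9 and 49.3 with BMP4 and 30.1, 20.7 and 25.7 without, so its controls were about background and the size of its change is not settled: 0.65 (limma adjusted p = 0.045), 0.85 with a pseudocount of 4 and 0.33 with 64. Its call was lost in 10 of the 13 alternatives that gave a value (adjusted p 0.0224 to 0.153), each array left out in turn among them. A further Tgfb1 set, 1445360_at, gave 0.44 and did not pass (limma adjusted p = 0.19). The others, also picked with values known, were Snai2 (0.50) and Tgfbi (0.36), which were higher, and Jun (-0.52) and Pmepa1, which were lower. Calls were lost in 6 of 14 alternatives for Snai2, 4 for Jun and 2 for Tgfbi. A dimmer Jun set, 1448694_at, was also lower (-0.29, limma adjusted p = 0.0209). The Snai2 value is from 1447643_x_at, whose suffix marks probes that can cross-hybridise, and 1418673_at gave 0.37 (limma adjusted p = 0.0298). The higher count of this list was 3 without the filter, without the trend, and without BMP4 replicate 1 or 2 or control replicate 2, and 2 with median centring. Its lower count was 0 without the filter, without the trend and without control replicate 1 or 2, and 1 without BMP4 replicate 1 or 2 or control replicate 3.

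**Figure D4:**
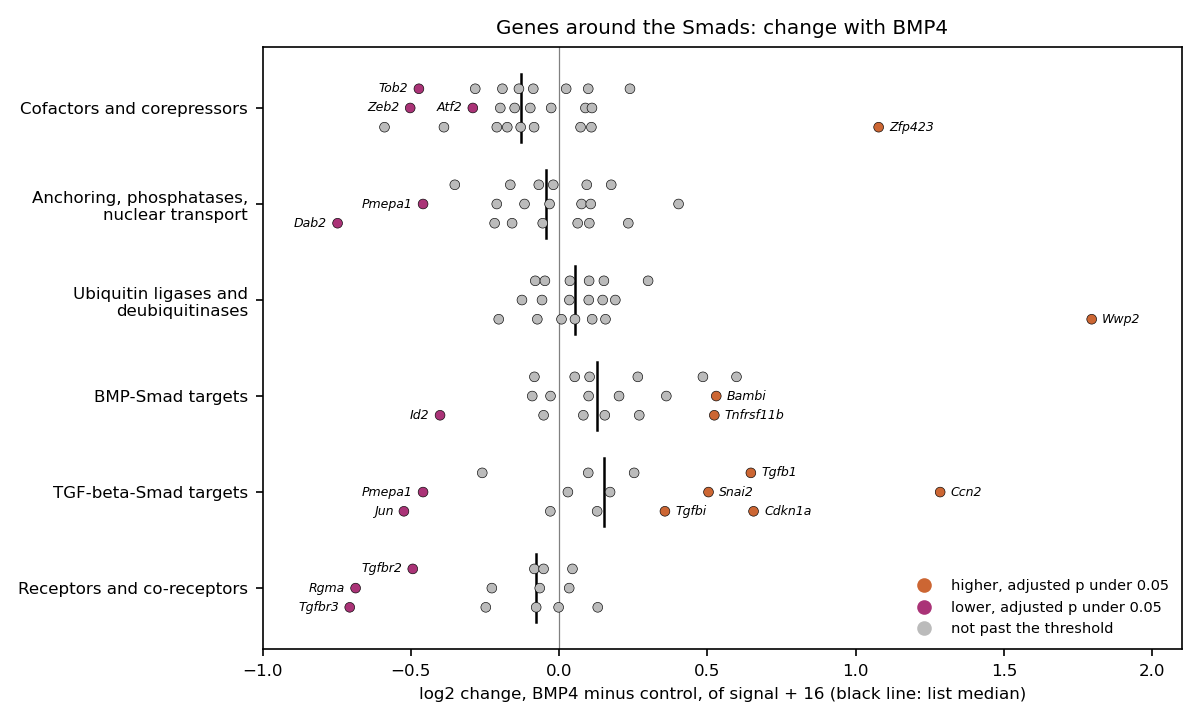
The log2 change of signal + 16 (BMP4 minus control) of every measured gene in the 6 lists of genes that work with the Smads, 1 point per gene, coloured by call, with a black line at each list's median. Called genes are named; Wwp2 at 1.80 and Ccn2 at 1.28 lie farthest to the right and Dab2 at -0.75 farthest to the left.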

How the data were processed

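The deposited files hold linear signal intensities of 1-colour arrays, which the authors computed in GCOS 1.3 (per the submitters' processing notes); scaling and background settings were not given in the sources used here. Groups and replicate numbers come from the sample titles. After 64 control probe sets were removed, log2(signal + 16) was computed. A probe set was kept if its mean over the 6 arrays exceeded the 40th percentile, a signal of 23.5, which left 27022, all 23 member probe sets among them. R 4.3.3 with limma 3.58.1 compared the groups, two-sided, by lmFit and by eBayes with a trend on intensity. P-values were adjusted by Benjamini-Hochberg over the 27022, and 0.05 was the threshold. Adding 16 understates changes of dim genes. The fit was tested on simulated data. Gene names come from the platform annotation. Named are all members, up to 3 called genes per list, and others where the text says so. The members and lists were chosen with earlier results of these data known. The 14 alternatives are other pseudocounts, filters, scalings and priors, a replicate block, and leaving out each array.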

Additional observations from a re-analysis of the deposited data

How the results depend on the processing

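Over 14 alternatives, 307 of 320 member values stayed on the same side of the threshold, 11 calls were lost (9 for Smurf2 1454894_at, 2 for Smad3 1450472_s_at), 2 were gained (Smad6) and 0 called values changed sign. The count of members higher was 1, not 0, with a filter at the 60th percentile and with quantile normalization; the count lower was 3 to 5 when 1 array was left out. Over all probe sets, median centring, which removes a difference of 0.09 in median log2 signal, gave 632 higher and 1890 lower, against 1136 and 1328, and without the intensity trend there were 659 and 763; leaving out 1 array gave 845 to 1063 lower. List genes numbered 5 higher with median centring and 6 lower without the trend, and 6 to 10 lower with 1 array left out. Replicate numbers did not pair the arrays: same-numbered arrays had correlations of 0.01, -0.003 and -0.072 in their deviations. No BMP4 array correlated best with the control of its own number, and among the controls only replicate 1 did so. With a replicate block, 5 member probe sets were lower and 0 higher (985 higher and 1105 lower over all probe sets). With 3 arrays per group, their number limits precision. Smad9 was at background, so a change there was not measurable. The causes of these differences were not tested.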
